A study of Mus musculus with 6 samples.

Results

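ChIRP-seq maps the genomic sites that a long noncoding RNA contacts, by pulling chromatin down with biotin-labelled DNA probes complementary to the RNA. For *LncRNA-HIT*, a transcript of the *HoxA* locus studied in limb cartilage formation, 1 peak list was deposited for the embryonic limb bud and 1 for mouse glial cells that served as the control. The regions described here are the limb peaks that lie in introns of protein-coding genes. A peak was included when it overlapped the body of a protein-coding gene in the GENCODE M1 annotation of mm9, overlapped no exon of any type of gene, and had its midpoint more than 5 kb from every protein-coding gene start. No cutoff was set on the score. Of 2880 limb peaks, 951 met this rule, and they lay in 739 genes.

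The limb chromatin came from cells of the distal part of pooled limb buds of Swiss Webster embryos, with a labelled stage of E 11.0. Each pull-down needed the limb buds of many embryos, so no list belongs to 1 animal. The glial chromatin came from a cell line derived from embryonic brain, chosen because it was held not to express *LncRNA-HIT*. Its labels give the strain as Swiss Webster and the stage as E 11.0, while its protocol text names another stage. In each tissue an odd set of 13 probes and an even set of 12 probes were hybridized separately, with 1 input library beside them. At each position the authors kept whichever of the odd and even signals was smaller before calling peaks, so that 6 libraries yielded 2 lists without replicates. The strength of a peak is given as −log10(p), the caller's score divided by 10, and the number of reads behind it is unknown. No difference between tissues can be tested with 1 list each. Intervals in the text are 95% intervals for counting error only, and peaks are not replicates of a tissue.

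Introns are the transcribed stretches between exons that are spliced out of the mature RNA. They hold much of the enhancer sequence of vertebrate genes, and some genes of limb patterning are regulated by enhancers in introns of their neighbours. Long introns are typical of genes for cell adhesion, axon guidance and synaptic proteins, so a count of peaks in such genes depends on how much intron they offer. For this reason counts were set beside eligible positions, which are the genome positions where the centre of a 400 bp window would meet the same rule.

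Probe-like sequence was found in part of the intronic peaks, and the sites are shown because a probe can hybridize to DNA as well as to RNA. A run of at least 12 bases identical to 1 of the 25 probes, on either strand, was present in 70 of the 951 peaks. Probe 16 of the even set accounted for 15 of them, more than any other probe. The probe and its sites in 5 of these peaks are printed 5′ to 3′ in the probe's orientation, with bases identical to the probe in capitals and the probe itself in lower case. The genes were chosen after their values were seen.
Probe 16: gtgagggctgggagtgaatg
*Pde7b*, plus strand of chr10:20408431-20408450: agGAatGCTGGGAGTGAATG
*Slc22a22*, minus strand of chr15:57287891-57287910: GgtctGaCTGGGAGTGAATG
*Prkrip1*, plus strand of chr5:136658560-136658579: ccatGtGCTGGGAGTGAATa
*Fcho2*, plus strand of chr13:99497388-99497407: tgctGaGCTGGGAGTGAAaG
*Ltbp1*, minus strand of chr17:75782046-75782065: acctcaGCTGGGAGTGAAaa
All of these sites hold the letters CTGGGAGTGAA. The peaks around them had −log10(p) values of 92.3 at *Pde7b*, 78.1 at *Slc22a22*, 86.3 at *Prkrip1*, 172 at *Fcho2* and 71.5 at *Ltbp1*. None of these 5 peaks overlapped a glial peak, which is the common case, since 2.84% of all intronic peaks did.

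Probe 9 of the odd set had a run in 9 peaks and probe 21 of the odd set in 8. The best match of any intronic peak was 18 of 20 bases, in the peak of *Adam12*, which encodes a metalloprotease of the cell surface. The longest run among peaks at the threshold of the study was 15 bases, in an intron of *Fgf13*, which encodes an intracellular relative of the fibroblast growth factors. Both are printed with 40 bases on each side, together with a site of probe 1 of the odd set in *Slit3*, which encodes a secreted ligand of Robo receptors. Capitals mark the 20 bases aligned with the probe, whether identical or not.
*Adam12*, minus strand of chr7:141271818-141271917: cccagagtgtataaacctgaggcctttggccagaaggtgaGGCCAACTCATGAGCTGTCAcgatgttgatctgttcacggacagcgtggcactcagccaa
*Fgf13*, minus strand of chrX:56353438-56353537: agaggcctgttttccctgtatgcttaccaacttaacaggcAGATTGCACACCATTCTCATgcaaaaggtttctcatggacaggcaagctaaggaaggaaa
*Slit3*, minus strand of chr11:35269314-35269413: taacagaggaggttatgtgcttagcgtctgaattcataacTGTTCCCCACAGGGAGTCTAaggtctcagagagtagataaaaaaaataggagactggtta
The sequence of probe 9 is gaccaattcatgagctgtca, and that of probe 21 is agattgcacaccattatggg. The −log10(p) of these peaks was 68.3 at *Adam12*, 84.3 at *Fgf13* and 80.8 at *Slit3*.

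The intronic peaks made up 33.0% of the limb list (95% Wilson interval 31.3% to 34.8%), and introns that met the rule made up 30.2% of genome positions. In the glial list the same rule took 938 of 2919 peaks, or 32.1% (30.5% to 33.9%). The difference between the lists, 0.887 percentage points with a Newcombe interval from −1.53 to 3.30, is no larger than its counting error. Limb peaks over exons were 10.7% of the list against 6.72% of positions, those within 5 kb of a gene start were 6.25% against 6.11%, and those outside coding genes were 50.1% against 56.9%. The intronic share thus exceeded that of the positions by a small margin, while exons were the class with the widest gap in ratio.

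The strength of the intronic peaks was close to that of the rest of the list. Values of −log10(p) spanned 7.59 to 310, and their median was 34.9 (exact interval of the median 32.4 to 37.7), and the median over the other limb peaks was 34.7 (32.6 to 37.0). At the threshold of the study, a p-value of 5.9e-57 or smaller, there were 255 intronic peaks, 26.8% of all, against 26.9% of the other limb peaks. The difference of these shares was −0.0913 percentage points, with an interval from −3.48 to 3.40. The width of the intronic peaks was 202 to 2631 bp with a median of 408 bp, the same median as that of the whole list.

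The 10 strongest intronic peaks had −log10(p) values from 146 to 310, and 3 were tied at 310. These lie in *Myo16*, an unconventional myosin, from chr8:10598922-10600278, in *Capn2*, a calcium-dependent protease, and in *Magi2*, a scaffold protein of cell junctions. The peak in *Myo16* lies in intron 33 of the 34 of its longest transcript, 327 kb from the gene start, and overlaps a glial peak over 833 bp. *Sfi1* followed with 252, *Tcte2* with 237, *Acss3*, an acyl-CoA synthetase, with 206 and *Ctnna2*, an alpha-catenin that links cadherins to actin, with 202. In *Ctnna2* the peak lies in intron 10 at chr6:77025096-77025626, 39563 bp from the nearest exon, and none of its 24-base words occurs elsewhere in the genome. *Fcho2*, a membrane-bending protein of endocytosis, had 172, *4930455F23Rik* had 171 and *Ube2o*, a ubiquitin-conjugating enzyme, had 146. Among these 10, the strongest peaks of *Myo16* and *Tcte2* were the ones that overlapped a glial peak.

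The share of genes with a peak rose with gene length, while the density of peaks per megabase of intron did not. Host genes had a median length of 156 kb (138 to 171 kb), and the 14576 coding genes with eligible intron had a median of 29.5 kb. Of those genes, 5.07% held an intronic limb peak, 1.56% held one at the threshold of the study and 0.844% held 2 or more. A peak was found in 1.44% of genes under 50 kb, 5.52% of those from 50 to 100 kb, 11.1% of those from 100 to 200 kb, 26.2% of those from 200 to 500 kb and 55.5% of the 200 genes of 500 kb or more. Per megabase of eligible intron the counts differed much less. The density was 1.33 peaks per Mb in genes under 50 kb (146 peaks, exact Poisson interval 1.12 to 1.56) and 1.18 in genes of 500 kb or more (195 peaks, 1.02 to 1.36). The ratio of the longest to the shortest class was 0.891 (exact interval 0.716 to 1.11), and the lowest density, 1.09, was in genes from 100 to 200 kb (0.935 to 1.26).

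**Figure D1:**
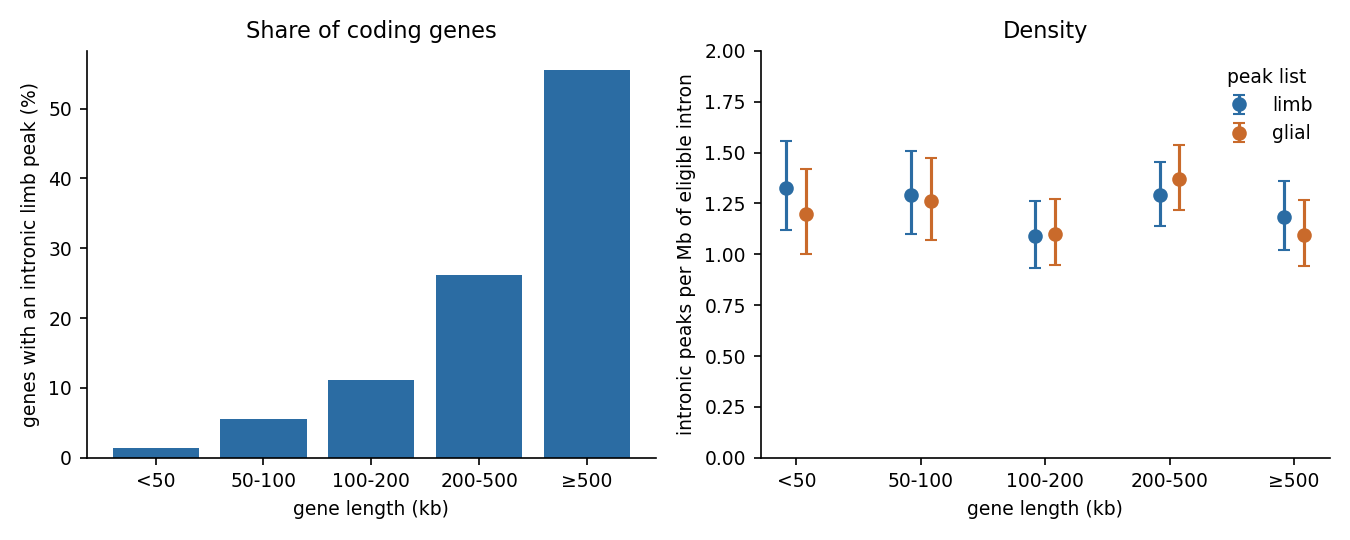
Left, the share of coding genes with eligible intron that held an intronic limb peak (%), by gene length in kb. Right, intronic peaks per Mb of eligible intron in the limb and glial lists, with 95% exact Poisson intervals as bars. The share rises from 1.44% to 55.5%, while the limb densities stay between 1.09 and 1.33 per Mb and their intervals overlap.

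Over all eligible intron the density was 1.23 limb peaks per Mb (1.15 to 1.31) and 1.21 glial peaks per Mb. Among chromosomes with an intronic limb peak the density was lowest on the X, where 17 peaks gave 0.468 per Mb (0.273 to 0.749). It was low there in the glial list as well, with 0.275 per Mb (0.132 to 0.506). Chromosome 11 had the highest limb density with 1.93 per Mb (1.53 to 2.42), against 1.08 per Mb (0.781 to 1.45) for glial peaks, and 12 of its 77 limb peaks lay in *Sfi1*. On chromosome 10 the order was turned, with 1.29 limb peaks per Mb (0.962 to 1.69) and 2.38 glial peaks per Mb (1.93 to 2.90).

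Peaks were somewhat more frequent in the later part of genes than the eligible positions there. When each gene body was cut into 5 equal parts from start to end, the parts held 14.5%, 19.1%, 23.1%, 24.5% and 18.7% of the peaks, beside 16.6%, 21.8%, 22.0%, 21.4% and 18.1% of the eligible positions. In part 4 the Wilson interval of the peaks, 21.9% to 27.3%, lay above the share of positions, and in part 2 the interval, 16.8% to 21.8%, lay just below it. Glial peaks had 23.6% in part 4, 20.3% in part 5 and 20.3% in part 2. In parts 4 and 5 the glial shares thus also exceeded those of the positions, so the later excess was not particular to the limb list. Intron 1 of the longest transcript held 204 peaks, or 21.5% (19.0% to 24.2%), beside 24% of positions. The last 40% of the gene body held 3.68 percentage points more of the peaks than of the positions (0.563 to 6.85). At the threshold of the study the excess was 5.17 points (−0.812 to 11.3), and with single eligible bases as positions it was 2.40 points (−0.714 to 5.57), so that both intervals held 0. The median peak lay 76.6 kb from the start of its gene and 53.7% of the way along it.

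Peaks near exons were also more frequent than positions near exons in the limb list. A midpoint within 1 kb of an exon was found for 22.1% of peaks (19.6% to 24.8%), against 18.6% of eligible positions, which gave 1.46 peaks per Mb (1.27 to 1.67). Between 10 and 50 kb from an exon there were 25.8% of peaks and 28.1% of positions, and beyond 50 kb 5.99% and 6.53%. The glial share within 1 kb was 18.4%, close to that of the positions. The peak farthest from any exon lay in *Fhit*, a dinucleoside hydrolase gene at a common fragile site, at chr14:11051046-11051453. It was 202759 bp from an exon, inside an intron of 551 kb, and had a −log10(p) of 56.5.

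At the limit of 5 kb, the nearest peak inside the rule was that of *Sypl2*, 5.01 kb from the nearest coding gene start, with a −log10(p) of 17.5. The nearest outside it was that of *Mthfd2*, at 4.89 kb with 69.7.

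**Figure D2:**
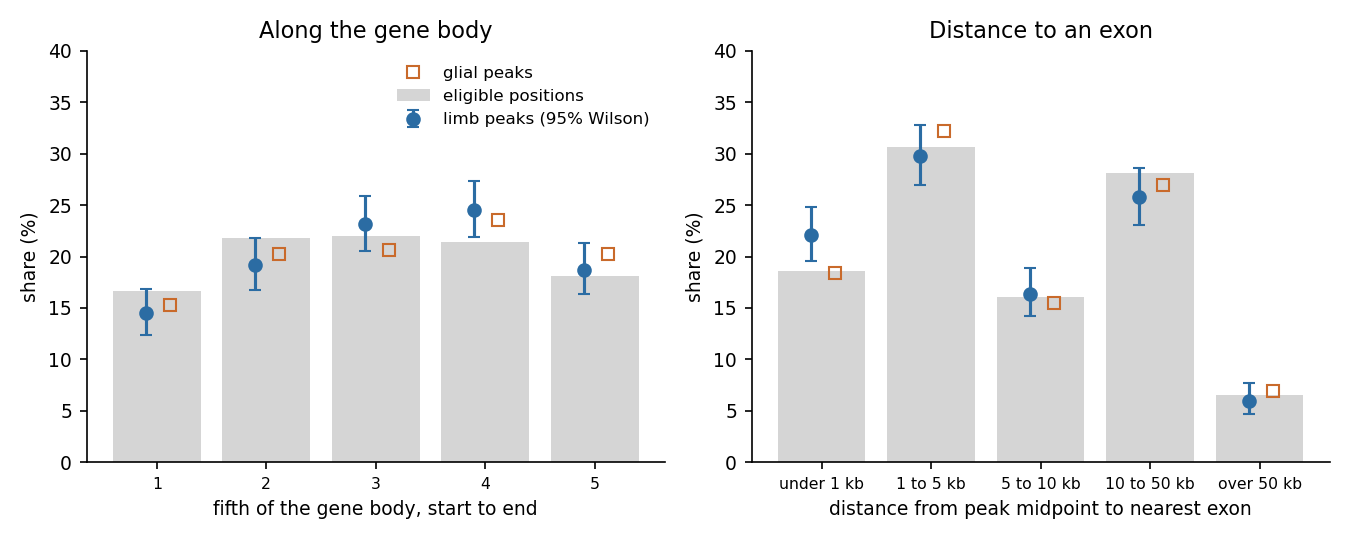
Left, shares (%) of intronic limb peaks, glial peaks and eligible positions in 5 equal parts of the gene body from start to end. Right, the same by distance from the peak midpoint to the nearest exon. Blue bars are 95% Wilson intervals of the limb shares, open squares are the glial shares and grey bars the eligible positions. Limb peaks exceed the positions in part 4, with 24.5% against 21.4%, and within 1 kb of an exon, with 22.1% against 18.6%.

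Most host genes had a single peak. There were 616 such genes, 83.4% of the hosts, while 123 genes with 2 or more peaks held 335 peaks, or 35.2% of all. Of these, 74 genes had 2 peaks, 31 had 3, 11 had 4, 2 had 5, 1 had 6, 2 had 7, 1 had 8 and 1 had 12. Genes with several peaks had a median length of 349 kb, against 132 kb for those with 1 peak. The median −log10(p) was 36.9 for peaks in genes with several and 34.0 for lone peaks.

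*Sfi1*, which encodes a centrin-binding protein of the centrosome, held 12 peaks in 61.6 kb, the most of any gene. Their −log10(p) ran from 9.74 to 252, and 3 reached the threshold of the study. The glial list has 9 intronic peaks in *Sfi1*, and 8 of the 12 limb peaks overlapped one. With 36.5 kb of eligible intron, *Sfi1* is the gene among the 10 with most peaks whose limb and glial peaks coincide in this way. None of the other 9 had a limb peak that overlapped a glial peak.

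*Grid1*, a delta-type glutamate receptor, and *Elmo1*, an activator of Rac in cell migration and engulfment, held 7 peaks each. In *Grid1*, 4 of them lie in intron 5, and the strongest, at chr14:36106225-36107077, had a −log10(p) of 136. The 7 peaks had −log10(p) values of 52.9, 32.3, 95.7, 27.5, 84.3, 136 and 33.7 in the order of the chromosome, and the 3 at the threshold of the study all lie in intron 5. In *Elmo1*, 6 of the 7 lie in intron 15, and the values along the chromosome were 52.2, 74.9, 19.7, 47.1, 65.5, 49.1 and 31.9. The glial list has 1 intronic peak in *Grid1* and none in *Elmo1*.

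*Gm20388*, with 8 peaks, and *Fgfr2*, with 6, each hold them in a single long transcript of the annotation. *Fgfr2* encodes a receptor for fibroblast growth factors that is needed for limb outgrowth. Its annotated body spans 3009 kb, but the second longest of its 29 transcripts spans 104 kb, and all 6 peaks lie outside the shorter span, inside the longest transcript alone, and the glial list has 5 intronic peaks in the same body. For 5 of them another coding gene overlaps the peak, *Chst15* for 2 and *Lhpp*, *Nsmce4a* and *Ate1* for 1 each. The remaining one, at chr7:138445421-138445853, had a −log10(p) of 85.8, the highest of the 6, and lies in no other coding gene. *Gm20388* is annotated with 1 transcript of 4435 kb, and 3 of its 8 peaks lie in the shorter genes *Nup133*, *Gse1* or *Urb2*. Over the whole set, 131 peaks (13.8%) lay inside 1 transcript only of a gene with several, and 694 lay inside 2 or more transcripts.

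*Fhit* and *Cntnap5c*, a relative of neurexins, held 5 peaks each, arranged in opposite ways. In *Fhit* they are spread over introns 1, 5 and 7, with neighbours 15.4 to 830 kb apart. In *Cntnap5c* all 5 lie in intron 21 within 5.36 kb, between chr17:58524423-58529777, with neighbours 0.737 to 1.68 kb apart. *Akap6*, which anchors protein kinase A, *Dcc*, a netrin receptor, and *Odz2*, a teneurin, had 4 each, as did 8 further genes. In *Dcc* the 4 peaks lie in 7.30 kb of intron 2, with −log10(p) values from 12.6 to 109, and no glial peak lies between them.

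**Figure D3:**
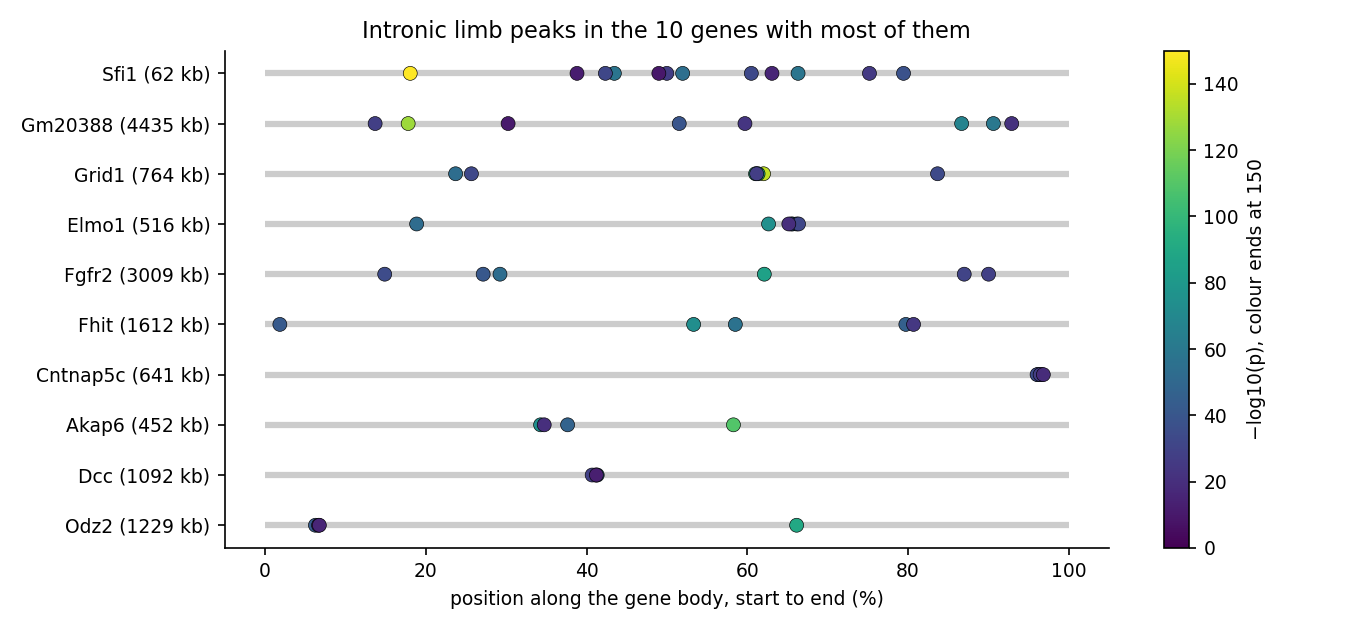
Position of each intronic limb peak along the gene body (%, start to end) for the 10 genes with most of them, coloured by −log10(p), with the gene length beside the name. In *Cntnap5c* and *Dcc* the peaks fall on nearly the same point, while those of *Gm20388* and *Fgfr2* are spread along gene bodies of 4435 kb and 3009 kb.

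Of the 123 genes with several peaks, 52 held a close group. Of 212 pairs of neighbouring peaks in the same gene, 84 (39.6%) were less than 5 kb apart, 35 were 5 to 25 kb apart and 93 were 25 kb or more apart. The 84 close pairs joined 138 peaks into 54 groups in 52 genes, with a median span of 3.01 kb. Within a group the strongest peak reached a −log10(p) of 58.3 in the median, the second strongest 25.5, and 8 of the groups held 2 or more peaks at the threshold of the study. Of the 54 groups, 47 had no glial peak in their span, and 7, among them those of *Sfi1*, had at least 1. Over all intronic peaks 2.84% overlapped a glial peak, but the span of a group is wider than a peak. Only 3 of the 84 close pairs shared a 24-base word on either strand, and 71 pairs lay in 1 intron. Grouping was not particular to introns. Another limb peak lay within 5 kb of 16.3% of the intronic peaks (14.1% to 18.8%) and of 14.2% of the other limb peaks, a difference of 2.15 percentage points with an interval from −0.599 to 5.04. In the glial list the share of intronic peaks with such a neighbour was 17.3% (15% to 19.8%).

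**Figure D4:**
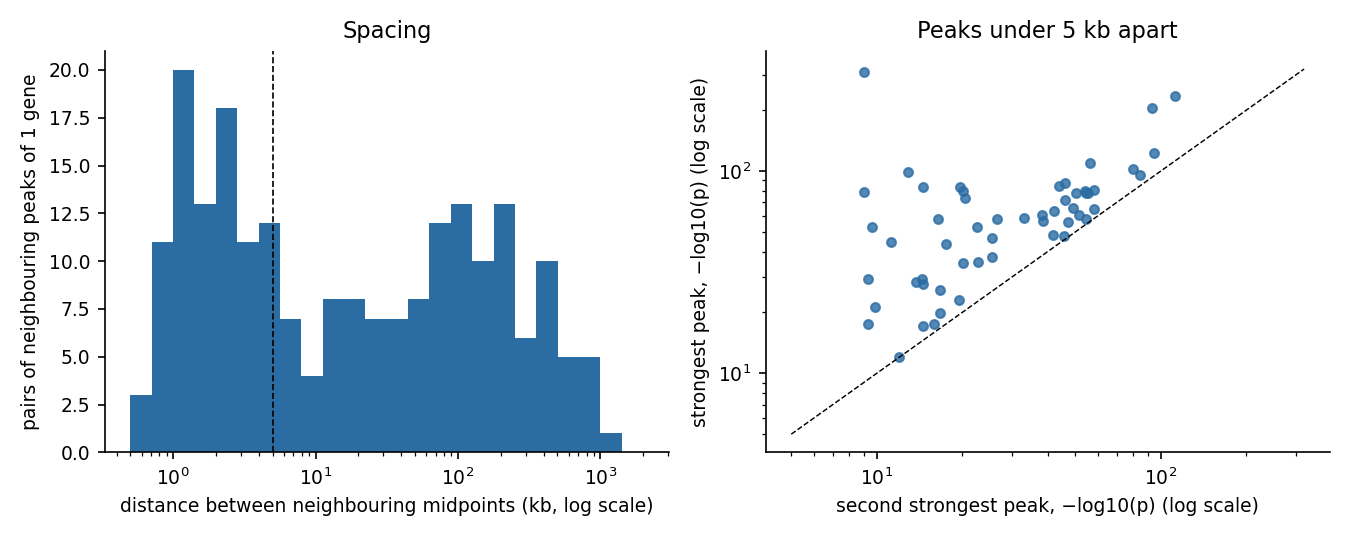
Left, distance between neighbouring intronic limb peaks of the same gene (kb, log scale), with a dashed line at 5 kb and 84 of the 212 pairs below it. Right, strongest against second strongest −log10(p) in the 54 groups of peaks under 5 kb apart (log scales), with a dashed line of equality. The medians are 58.3 and 25.5.

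Overlap between called limb and glial peaks was rare. It was found for 27 of the 951 peaks, or 2.84% (1.96% to 4.10%), and for 4.35% of the other limb peaks, a difference of −1.52 percentage points (−2.85 to −0.0100). Within the other limb peaks the share was highest over exons, with 10.7% (7.76% to 14.7%). It was 3.89% (1.90% to 7.81%) within 5 kb of a gene start and 3.05% (2.28% to 4.07%) outside coding genes, and both intervals contain the intronic share. Among peaks with under 10% repeated words the intronic and other shares were 1.23% and 1.92%, and the interval of their difference, −1.73 to 0.560, held 0. Without *Sfi1* the intronic share was 2.02% (1.30% to 3.14%), a step chosen after seeing its 8 shared peaks. The 27 shared peaks lay in 19 genes, with a median of 16.4% of their 24-base words found more than once in the genome, against 0.526% for the other intronic peaks. Among the shared peaks were those of *Smo*, the signal transducer of the Hedgehog pathway, with a −log10(p) of 23.4 and 65.1% repeated words, and of *Pde10a*, a phosphodiesterase, with 53.6 and none. The study, which compared its top limb peaks with the glial control by eye in a genome browser, excluded a larger share of them. Overlap of called peaks is a different measure, and at the threshold of the study it reached 4.71% of the intronic peaks. Absence of a called glial peak therefore does not mean absence of glial signal.

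Host genes were shared between the lists as well as sites. Of the 739 limb hosts, 153 (20.7%) also held an intronic glial peak, which is 21.8% of the 702 glial hosts. Since longer genes hold peaks of both lists more often, the count was split by length. In genes of 500 kb or more, a glial peak was found in 47.7% of limb hosts (38.7% to 57.0%) and in 46.1% of the genes without a limb peak (36.1% to 56.4%). In genes from 200 to 500 kb the shares were 30.5% and 26.3%, and in those from 100 to 200 kb 15.2% and 10.3%. In genes under 50 kb they were 4.26% (1.96% to 8.97%) and 1.21% (1.01% to 1.45%), the class in which the intervals did not overlap, with 6 genes behind the first share.

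The study lists 23 genes with an intronic peak, and 18 of the 22 that had eligible intron were hosts, and 17 held a peak at its threshold, beside 5.07% and 1.56% of all coding genes with eligible intron. The study chose this list on these samples, so the count is not independent evidence. The strongest were *Acss3* with 206, *Fcho2* with 172, *Col14a1*, a fibril-associated collagen, with 141, *Gpc6*, a glypican that carries heparan sulfate, with 135, *Pcsk6*, a proprotein convertase that processes growth factor precursors, with 123, *Akap6* with 110 and *Pik3cb*, a catalytic subunit of PI3 kinase, with 108. *Dtl*, part of a ubiquitin ligase, held a peak of 24.1 in an intron. *Gli2*, a transcription factor of the Hedgehog pathway, had 74.9, *Pde11a* 80.0, *Vwa5b1* 59.8, *Col5a3*, a chain of type V collagen, 61.1, *Arl15*, a small GTPase, 71.1 and *Mctp1*, a membrane protein with C2 domains, 99.1.

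Several genes of the list held more than 1 intronic peak. *Akap6* and *Ncam1* had 4 intronic peaks each, and *Rbms3*, *Acss3* and *Gpc6* had 3. In *Ncam1*, an adhesion molecule of mesenchymal condensations, the strongest had 72.3 and the weakest 8.72. For the 5 of the 23 genes without such a peak, the limb peak inside the gene body lay over an exon of some gene, as with *Zbtb40*, *Alox5ap*, *Tmem132d* and *Unc13a*, or within 5 kb of a gene start, as with *Lynx1*.

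Genes of signalling pathways were read against the background of 5.07% of coding genes with a peak and 1.23 peaks per Mb. Of 36 genes of the BMP and TGF-beta list with eligible intron, 4 were hosts (11.1%), with 7 peaks or 2.55 per Mb (1.02 to 5.25). *Bmpr1b*, a BMP receptor of cartilage condensations, had 1 peak of 83.3 in intron 10 of 11, 915 bp from an exon. *Ltbp1*, which keeps TGF-beta latent in the matrix, had 3 with 89.8, 71.5 and 46.1, *Smad6*, an inhibitory Smad, 2 up to 28.3, and *Tgfbr2*, a TGF-beta receptor, 1 of 47.4. None of these 4 held an intronic glial peak, while 2 other genes of the list held 3, or 1.09 per Mb. The interval of the density contains the background, so 7 peaks do not separate the list from other genes.

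In the Hedgehog list 3 of 13 genes were hosts, the receptor *Ptch1* with a peak of 50.2 beside *Smo* and *Gli2*. The 3 peaks gave 3.39 per Mb (0.699 to 9.91), and the glial list had 4 hosts and 4 peaks, or 4.52 per Mb, among them 1 peak each in *Smo* and *Gli2*. The Wnt list had 1 host among 32 genes, *Axin2*, a negative regulator of the pathway, with 49.3. Of 17 FGF genes, 3 were hosts, and 6 of their 9 peaks were those of *Fgfr2* described above, while the glial list had 6 peaks in 2 of these genes. *Fgf13* held 2, the peak of 84.3 and one of 43.8 less than 5 kb away, and *Fgf14* held 1 of 15.6. Limb and cartilage transcription factors had 6 hosts of 31 genes and 1.25 peaks per Mb (0.541 to 2.47), against 1.23 for all eligible intron, and the glial list had 7 hosts and 1.10 peaks per Mb. Among the hosts were *Foxp1*, *Foxp2*, *Sox5*, *Sox6* and *Ebf1*, whose strongest peaks had −log10(p) values from 19.7 to 34.9, below the threshold of the study.

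Among collagens, proteoglycans and proteases, 13 of 70 genes were hosts and 7 of them at the threshold, with 17 peaks or 1.58 per Mb (0.920 to 2.53). The background shares were 5.07% of genes and 1.56% at the threshold, the list has a median gene length of 117 kb, and the interval of the density contains the 1.23 per Mb of all eligible intron. The glial list had 9 peaks in these genes, or 0.836 per Mb, and the difference between the lists was not tested. The 7 were *Col14a1*, *Gpc6*, *Pcsk6*, *Gpc5*, *Adam12*, *Adam22* and *Col5a3*. *Gpc6* had 3 peaks of 58.1, 25.1 and 135, none of which held a word repeated elsewhere, and *Gpc5*, another glypican, had 109 with 54.3% of its words repeated. *Adam22*, a relative of *Adam12* without protease activity, had 66.2.

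In a list of long genes, chiefly of adhesion and scaffold proteins, the share of hosts was above the background and the density was not. The list also holds genes of other roles, among its hosts *Fhit*, *Wwox*, an oxidoreductase, *Park2*, a ubiquitin ligase, and *Macrod2*, a macrodomain protein. Of the 76 genes with eligible intron, 36 were hosts (47.4%, background 5.07%) and 12 held a peak at the threshold (15.8%, background 1.56%). With a median length of 695 kb these genes offered 59.4 Mb, and their 65 peaks gave 1.09 per Mb (0.845 to 1.40), an interval that contains the 1.23 per Mb of all eligible intron. The glial density in the same genes was 1.35 per Mb. Hosts at the threshold were *Magi2*, *Ctnna2*, *Akap6*, *Odz2* with 89.8, *Cntn5* with 89.5, *Dlgap2* with 78.5, *Fhit* with 73.8, *Ctnna3* with 72.7, *Ncam1*, *Pcdh7* with 71.9, *Lrrc4c* with 56.8 and *Cntnap5a* with 56.7. Of the 5 host genes with most eligible intron, *Ptprd* held 2 peaks, *Lrp1b* 1 and *Macrod2* 1, at 0.903, 0.502 and 0.515 per Mb, and none reached the threshold.

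Axon guidance genes had 10 hosts of 44, and 1.53 peaks per Mb (0.932 to 2.36). *Slit3*, described above, had 3 peaks that all reached the threshold, with 58.4, 80.8 and 68.2, all in intron 4. *Unc5d*, a netrin receptor, held 4 peaks in 6.03 kb, led by one of 87.3, *Dscaml1* held 3 up to 79.9 and *Dscam*, its relative in neuronal self-avoidance, 1 of 68.2. The background share of hosts was 5.07%, and the interval of the density contains the 1.23 per Mb of all eligible intron. The glial list had 12 hosts and 13 peaks in these 44 genes, or 0.992 per Mb, with peaks in *Unc5d*, *Dscam* and *Dcc* and none in *Slit3* or *Dscaml1*.

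The match to the probes shown above was more frequent in the peaks than in the windows of the same width that adjoin them on both sides. Of the intronic peaks 7.36% (5.87% to 9.20%) held a run of 12 identical bases, as did 2.10% of the 1902 windows, a difference of 5.26 percentage points (3.59 to 7.18). The share was 8.19% in the other limb peaks (difference −0.830, −2.82 to 1.33) and 2.67% in intronic glial peaks (1.81% to 3.90%). Of all intronic peaks, 26.8% reached the threshold of the study, 76.7% had under 10% repeated words and 2.84% overlapped a glial peak. Of the 70 with a run, 27 reached the threshold, 59 had under 10% repeated words and 2 overlapped a glial peak. The probe read as the strand of the host gene in 34 and as the opposite strand in 36. For probe 16 the count was 15 in peaks and 5 in the windows, for probe 9 it was 9 and 2, and for probe 21 it was 8 and 1.

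The looser match of 15 of 20 bases was present in 197 peaks, or 20.7% (18.3% to 23.4%), and in 12.9% of the windows, a difference of 7.83 points (4.91 to 10.9). Here the intronic peaks also exceeded the other limb peaks, which had 16.6%, by 4.13 points (1.12 to 7.25). Peaks at the threshold matched in 25.5% and weaker ones in 19.0%. A match to at least 1 probe of each set was found in 7 peaks (0.736%) and in 0.473% of the windows, a difference of 0.263 points (−0.306 to 1.07). Neither kind of match was present in 722 of the 951 peaks, or 75.9%. The part of these matches in the peaks was not tested beyond these counts.

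**Figure D5:**
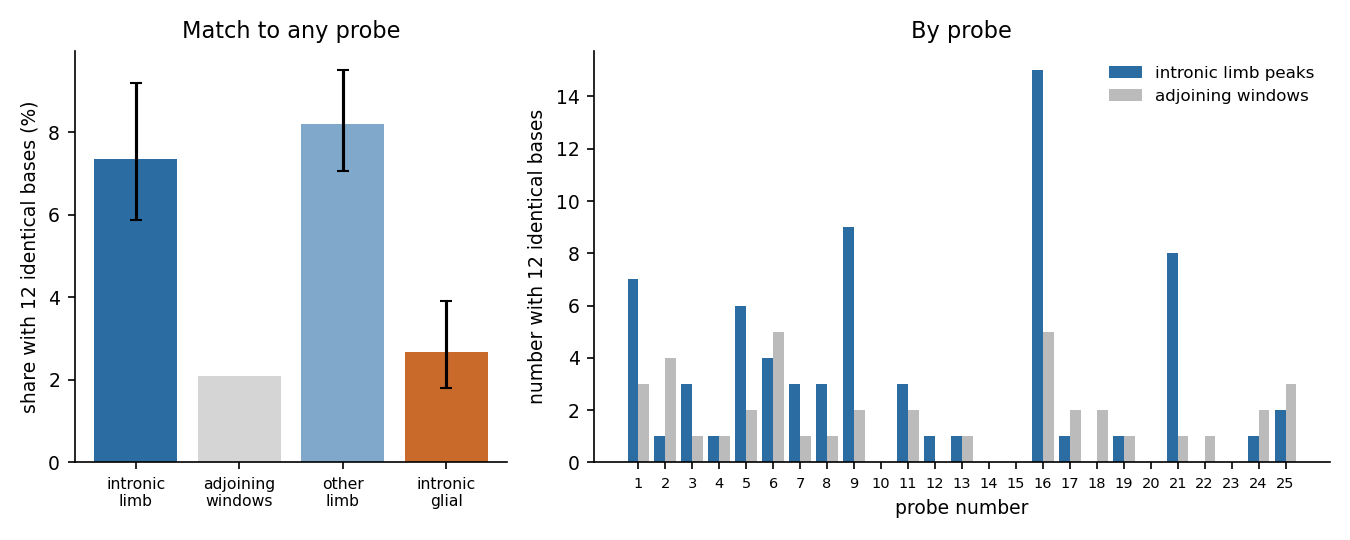
Left, share (%) of peaks or windows with a run of 12 bases identical to a probe, with 95% Wilson intervals on the peak classes. Right, number of intronic limb peaks and of adjoining windows whose longest run belongs to each of the 25 probes. The intronic limb peaks stand at 7.36%, the windows at 2.10%, and probe 16 has 15 peaks and 5 windows.

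In base composition the peaks differed little from their surroundings. GC content had a median of 44.5% in the peaks, and the difference from the mean of the 2 adjoining windows had a median of 0.613 percentage points (0.281 to 0.980). It was higher in 527 peaks and lower in 416. At the threshold of the study the median difference was 1.35 points (0.693 to 2.10). Repeated words made up a median of 0.737% of a peak and 3.55% of its windows, a median difference of −0.244 points (−0.500 to 0).

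Short motifs were searched on both strands in the peaks and in the adjoining windows. The tract CACACACA was present in 19.5% of peaks and 14.5% of windows, a difference of 4.94 points (2.03 to 7.98), and in 16% of all limb peaks. Tracts of alternating CA or TG of at least 30 bases were found in 4.73% of intronic peaks and 3.10% of windows (difference 1.63 points, 0.161 to 3.32). In the other limb peaks the corresponding difference was 0.181 points (−0.812 to 1.27), and in intronic glial peaks it was 1.44 points (−0.00599 to 3.11). For tracts of at least 8 bases the difference was 5.15 points (2.16 to 8.27) in intronic limb peaks. It was 3.41 points (0.430 to 6.52) in intronic glial peaks and 0.855 points (−1.07 to 2.86) in the other limb peaks. The excess of short tracts was thus present in the intronic peaks of both lists. The tracts in the peaks of *Elmo1*, and of *Kalrn*, a guanine nucleotide exchange factor, are printed on the plus strand with the tract in capitals, as 2 of the longest at the threshold of the study.
*Elmo1*, chr13:20505526-20505643: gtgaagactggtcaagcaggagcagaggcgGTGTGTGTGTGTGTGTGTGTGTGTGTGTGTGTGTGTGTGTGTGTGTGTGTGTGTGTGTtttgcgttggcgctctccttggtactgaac
*Kalrn*, chr16:34083723-34083833: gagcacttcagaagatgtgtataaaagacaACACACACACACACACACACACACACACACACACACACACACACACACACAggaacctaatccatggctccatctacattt
The peak of *Elmo1* had a −log10(p) of 74.9 and no glial overlap, and that of *Kalrn* had 88.9 and was covered by a glial peak along its whole width.

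For the remaining motifs the interval of the difference between peaks and windows included 0. The SOX word AACAATG was present in 8.73% of peaks and 7.31% of windows, GAGAGAGA in 7.78% and 8.10%, and CCAATAAA, a word bound by posterior Hox proteins, in 1.68% and 1.42%. The cyclic AMP response element TGACGTCA was found in 2 peaks, the GLI word TGGGTGGTC in 2, and the STAT6 motif, TTC and GAA with any 4 bases between them, in 10.2% of peaks and 12.2% of windows. Their shares in all limb peaks were 8.54% for SOX, 7.08% for GAGAGAGA, 1.94% for CCAATAAA, 0.313% for TGACGTCA, 0.139% for GLI and 11.8% for STAT6. These are matches of letters in a window, and binding was not measured.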

How the data were processed

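Limb and glial chromatin were each pulled down with odd and even probes, with 1 input per tissue. Per the submitters' processing notes, reads were mapped to mm9 with Bowtie 0.12.9. According to the study's methods, uniquely mapped reads were normalized to the total read count, the minimum of the odd and even tracks was taken, and peaks were called against the input with MACS, whose version is not given in the sources used here. The score in the deposited peak lists is 10 times −log10(p) as the authors' peak caller gave it. It was divided by 10, and reads per peak are unknown. The members, lists, motifs and tests were chosen with earlier results of these data known.

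Peaks were placed on the GENCODE M1 annotation, whose chromosomes were matched to the mm9 sequence. Where several coding genes overlapped a peak, the longest was the host. Intron numbers refer to the transcript with the longest span. Eligible positions were known bases whose 400 bp window met the rule. A repeated word is a 24-base word found more than once in the genome. Peaks were compared with the probes without gaps. Some adjoining windows overlap neighbouring peaks or exons. Intervals are Wilson for shares, Newcombe for their differences, exact Poisson for densities and order statistics for medians, each at 95%. No p-value was computed, since there are no replicates. Named genes were those the study lists with an intronic peak, the 10 hosts with most peaks, the 10 strongest peaks, list members at the study threshold and the 5 hosts with most eligible intron. Some genes that met this rule are not reported here. Others are named as single values seen in the data. Alternatives varied the gene starts, exons, strength, repeats, glial overlap, host, window, match and flank. Procedures were tested on simulated data. Calculations used scipy 1.17.1, numba 0.67.0, pandas 2.3.3, numpy 2.4.6 and matplotlib 3.10.9 under Python 3.11.15.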

Additional observations from a re-analysis of the deposited data

How the results depend on the processing

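No paired analysis was possible because each tissue has 1 merged list and no test was made across samples. For the same reason no replicate could be left out. Of 101 recomputed values, 75 stayed within the interval of the reported value, or within 1.5 times a count, and 25 moved. One reversed, and the cause was not tested. The intronic share became 35.3% with a limit of 1 kb from gene starts, 30.1% with 10 kb and 28.8% with the starts of every transcript. At the study threshold there were 255 peaks in 227 genes, 24 of them with several, with a median −log10(p) of 73.3, a glial overlap of 4.71%, a probe match of 25.5% and a GC difference of 1.35 points. With p of 1e-100 or smaller there were 32 peaks in 31 genes, 1 of them with several, with 126, 12.5%, 25% and 2.62 points in the same order, and a repeated-word difference of −0.959. In the reported values the last 40% of the gene body held 3.68 percentage points more of the peaks than of eligible positions (0.563 to 6.85), and among those 32 peaks this was −2.04 (−16.6 to 15.2). With peaks low in repeated words, the density ratio of the longest to the shortest genes was 1.14, the glial overlap 1.23% and the repeated-word difference −1.04, and with windows 5 kb away that difference was −1.52. A probe match was found in 63.4% at 14 of 20 bases, 4.0% at 16 of 20 and 7.36% for a run of 12, against 58.5%, 1.68% and 2.10% of adjoining windows. Calculations without *Sfi1*, or without *Gm20388* and *Fgfr2*, were added after seeing the data and stayed within the intervals. The unknown read depth limits any comparison of scores between the lists.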

Other observations

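Of the 27 intronic limb peaks that overlapped a glial peak, 12 reached the threshold of the study and 9 had under 10% repeated words. Over all intronic peaks these shares were 26.8% and 76.7%. *Sfi1* alone held 8 of the 27. The median −log10(p) was 50.01 for the shared and 34.7 for the other intronic peaks, and the glial peak covered a median of 99.8% of the limb peak. Outside *Sfi1* and *Tcte2*, each of the shared peaks lay in a gene of its own.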
